A study of Rattus norvegicus with 30 samples.

Results

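Heat shock chaperones are proteins that bind unfolded or newly made polypeptides, keep them from aggregating and hand them on for folding or degradation. The transcription factor Hsf1 is held inactive by chaperones in unstressed cells, and on heat, toxins or other protein damage it binds heat shock elements in the promoters of these genes, so that the stress-inducible HSP70 genes are transcribed within minutes. In lung, chaperones are known mainly from injury, fever and oxidant exposure, where epithelium, endothelium and infiltrating leucocytes can all make them. The genes followed here were the 10 genes Hspa1a, Hspa1b, Hspa8, Hsph1, Hsp90aa1, Hspb1, Hspd1, Dnajb1, Bag3 and Hsf1, taken by their symbols out of 22914 genes with read counts, and 9 of the 10 passed the filter on low counts.

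The samples were lungs of male Sprague Dawley rats, 8 weeks old, all fasted, anaesthetised with pentobarbital and operated on. Sham rats had the pancreas moved slightly, Con rats received sterile saline in the biliopancreatic duct, and SAP rats received 5.0% sodium taurocholate there, which causes severe acute pancreatitis (SAP) followed by acute lung injury. DEX rats were SAP rats given dexamethasone, a synthetic glucocorticoid, intravenously at 10 mg/kg, and Emo rats were SAP rats given emodin, an anthraquinone from rhubarb, by gavage, at 40 mg/kg in the treatment protocol and 10 mg/kg in the sample descriptions. Doses were given at 2 and 12 h after the operation, and lungs were taken at 6 or 24 h, so that the 6 h rats had only the dose at 2 h; rats without a drug got its vehicle. Each of the 10 groups had 3 libraries, which the study's methods describe as lungs of 3 of the 6 rats per group and time.

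In the 30 libraries, 16813949 to 34692306 reads (median 27554901) were assigned to genes. Levels are given as FPKM, fragments per kilobase of transcript scaled to the depth of the library, which allows levels of different genes to be compared. Fold changes are log2 ratios of read counts; p-values come from quasi-likelihood fits in edgeR and were adjusted by Benjamini-Hochberg over the 15934 genes tested, and a gene was called when its adjusted p was under 0.05 and its change at least 2-fold. The library of the first SAP-24h rat (replicate 1) stood apart for these genes. In FPKM it had the highest value of all 30 libraries for 8 of the 9 tested members, all but Hsf1. In CPM, counts scaled to library size and by TMM factors, of which this library had the lowest (0.888), it was the highest for 9 of 9, against 43 of 81 other chaperone genes (53.1%) and 11.1% of all genes tested. The lung markers were in place in all groups, with a summed level of 8 alveolar type 2 cell markers of 25200 to 48200 FPKM. Counts of called members in comparisons with SAP-24h are therefore given with and without it.

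By the authors' methods, reads that mapped to more than 1 place in the genome were discarded, which bears on 4 members with near-identical copies. In the authors' mapping statistics the share of reads kept as uniquely mapped was lower in every SAP, DEX and Emo library than in every Sham and Con library, so that this difference and the pancreatitis cannot be told apart in any comparison of SAP, DEX or Emo with Sham or Con rats. That share was also higher in every DEX-24h and Emo-24h than in every SAP-24h library, and higher in Emo-24h than in DEX-24h. It was higher at 24 h than at 6 h in DEX and in Emo rats, and lower in DEX-6h than in SAP-6h, without overlap. In those comparisons it cannot be told apart from the drug or the time. In every DEX-6h and Emo-6h library and the second SAP-24h library, more reads were assigned to genes than those statistics list as uniquely mapped. How the deposited counts relate to the discarding is therefore not known. Relative to uniquely mapped reads, fewer were assigned in every Sham and Con library than in SAP, DEX and Emo libraries, except the third SAP-6h library. This too cannot be told apart from the pancreatitis. Hspa1a and Hspa1b, neighbouring genes on chromosome 20 that encode almost the same stress-inducible HSP70, were counted very unequally: Hspa1a (ENSRNOG00000045654) had 2 reads in all, 1 each in the third SAP-24h and the second Emo-24h rat, while Hspa1b (ENSRNOG00000050647) had 29805. The entry with the symbol Hspa8 (ENSRNOG00000032585), the constitutive HSP70 of the cytosol, lies on chromosome 5 in the deposited annotation, whereas RefSeq places Hspa8 on chromosome 8 and lists 33 pseudogenes named for it. Its mean level was 1.24 FPKM, against 586 FPKM for the entry AABR07070032.1 on chromosome 8, which is described as heat shock cognate 71 kDa protein. The Hspa8 entry held 0.153% to 0.3% of the reads of both. A further entry, LOC680121 on chromosome 11, described as similar to heat shock protein 8, had a mean of 27.7 FPKM and is not counted in that share. Hsp90aa1 (ENSRNOG00000007219), the stress-inducible form of HSP90, had 0 to 6734 reads per library and none in 5 libraries, and an entry described as HSP 90-alpha, LOC103692716, carried most of the reads of the pair, with a median of 0.759% and at most 29.2% in Hsp90aa1. Values for Hspa1a, Hspa1b, Hspa8 and Hsp90aa1 are thus values of these entries and not of all transcripts of the protein. Copy entries were chosen after their values had been seen.

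**Figure D1:**
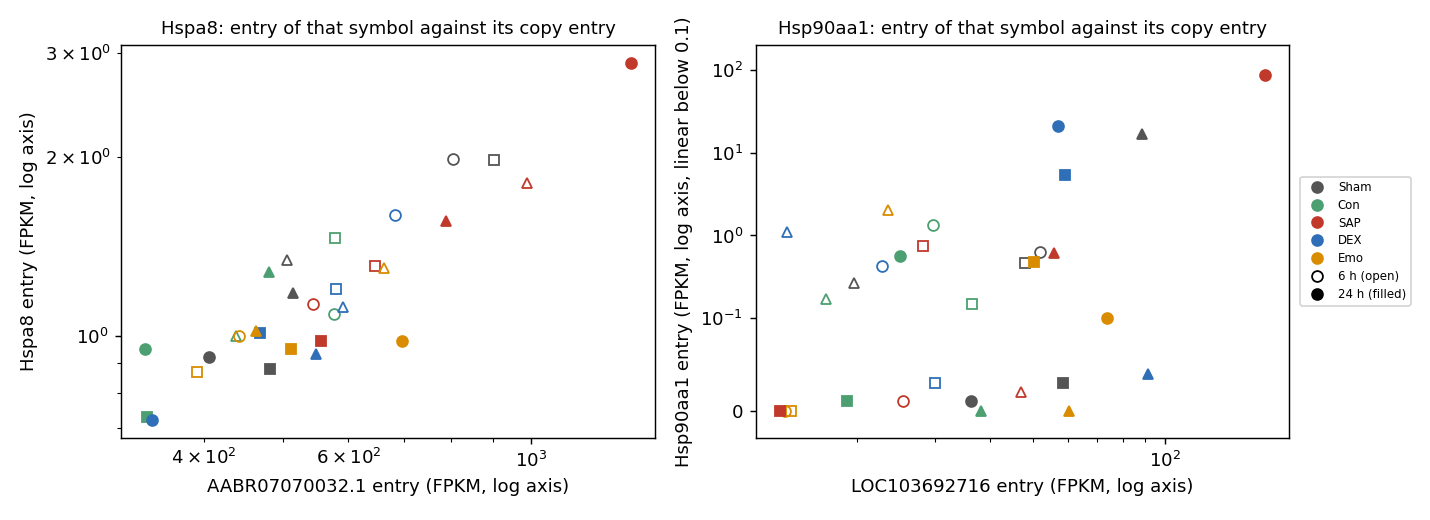
FPKM of the Hspa8 and Hsp90aa1 entries (vertical axes) against AABR07070032.1 and LOC103692716 (horizontal axes), 1 point per rat; colours mark treatments, open symbols 6 h, filled symbols 24 h, and circles, squares and triangles replicates 1, 2 and 3. All axes are logarithmic, linear below 0.1 FPKM for Hsp90aa1, and the first SAP-24h rat is the point at the upper right of both panels (1321 and 168 FPKM on the horizontal axes).

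Promoter sequence was available for 7 of the 10 members in the RefSeq promoter table (build GRCr8, 250 bases before to 50 after the start). A heat shock element is built from alternating GAA and TTC units, and the sequences below were chosen because they hold the elements found before the start of the genes whose levels are described next, with the matched bases in capitals. Dnajb1 has another element, GAAGCTTC, which begins 17 bases after the start, outside the stretch shown. The Hspa8 sequence belongs to the chromosome 8 gene.
Hspd1, chr9:64084247-64084287, minus strand: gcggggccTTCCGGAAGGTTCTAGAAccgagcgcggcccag
Hsph1, chr12:10427248-10427359, plus strand: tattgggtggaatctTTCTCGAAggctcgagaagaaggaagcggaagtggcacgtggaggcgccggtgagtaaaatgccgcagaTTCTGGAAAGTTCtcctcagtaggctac
Hspa8, chr8:50080286-50080486, plus strand: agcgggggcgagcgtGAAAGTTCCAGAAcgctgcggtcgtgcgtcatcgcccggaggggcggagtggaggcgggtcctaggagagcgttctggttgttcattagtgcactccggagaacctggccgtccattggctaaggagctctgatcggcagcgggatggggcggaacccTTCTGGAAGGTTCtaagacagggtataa
Hspb1, chr12:26432388-26432445, minus strand: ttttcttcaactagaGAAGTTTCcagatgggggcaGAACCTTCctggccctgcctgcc
Bag3, chr1:192533313-192533350, plus strand: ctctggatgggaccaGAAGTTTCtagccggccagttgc
Dnajb1, chr19:41431142-41431167, minus strand: gcatcgggaggggcgGAAGGTTCtgg

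The element of 2 units, GAANNTTC or TTCNNGAA on either strand, was in the windows of 6 of the 7 members with a window (all but Hspa1a), and in 15.9% of all 33469 windows. The element of 3 such units, alternating and each 2 bases apart, was in the windows of Hspd1, Hsph1 and Hspa8 and in 0.798% of all windows; each such match contains elements of 2 units. It began at position -36 from the start in Hsph1, at -213 and -55 in Hspa8 and at -242 in Hspd1, where overlapping matches form a run of 4 units. TATAAA was in none of the 7 windows (14.2% of all), and CCAAT in 4 of them (37.5% of all). These matches describe letters in a window and are no evidence of binding. A window without a match does not show that the gene lacks the element or TATAAA elsewhere. Whether the Hspa1a window lies at the start used in lung was not tested, and Hspa1b had no window.

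The levels spanned several orders of magnitude. Hspb1, the small heat shock protein HSP27 that binds unfolding proteins and actin, was by far the most abundant entry among the members, with a median of 465 FPKM over the 30 libraries, and Hspd1, the mitochondrial HSP60 chaperonin, followed with 41.8 FPKM. Dnajb1, the HSP40 cochaperone that delivers clients to HSP70, had a median of 36.9 FPKM, Bag3, a nucleotide exchange factor that couples HSP70 to autophagy, 30.8 FPKM, and Hsph1, the HSP110 nucleotide exchange factor, 27.3 FPKM. Hsf1 stood at 14.6 FPKM and Hspa1b at 4.25 FPKM. The highest group mean was that of SAP-24h for 7 of the 9 tested members and that of DEX-6h for Bag3 and Hsf1. When the first SAP-24h rat was left out, SAP-24h was highest for 1 of the 9, Hspa1b, and the highest mean was that of Sham-6h for Hspb1 and the Hspa8 entry, SAP-6h for Hsph1, DEX-24h for the Hsp90aa1 entry, Emo-24h for Hspd1 and Emo-6h for Dnajb1. Apart from the Hsp90aa1 entry, Hspa1b had the widest span of group means, from 2.93 FPKM in DEX-6h to SAP-24h, a ratio of 24.2 that was 7.3 without the first SAP-24h rat. Hsf1 had the narrowest, from 12.7 FPKM in Sham-24h to 18.1 FPKM in DEX-6h, a ratio of 1.43. With the 10 groups put in order of their means, 7 of the 9 neighbouring pairs lay within 1 SD of each other for Dnajb1 and Bag3, and 9 of 9 for the other members.

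**Figure D2:**
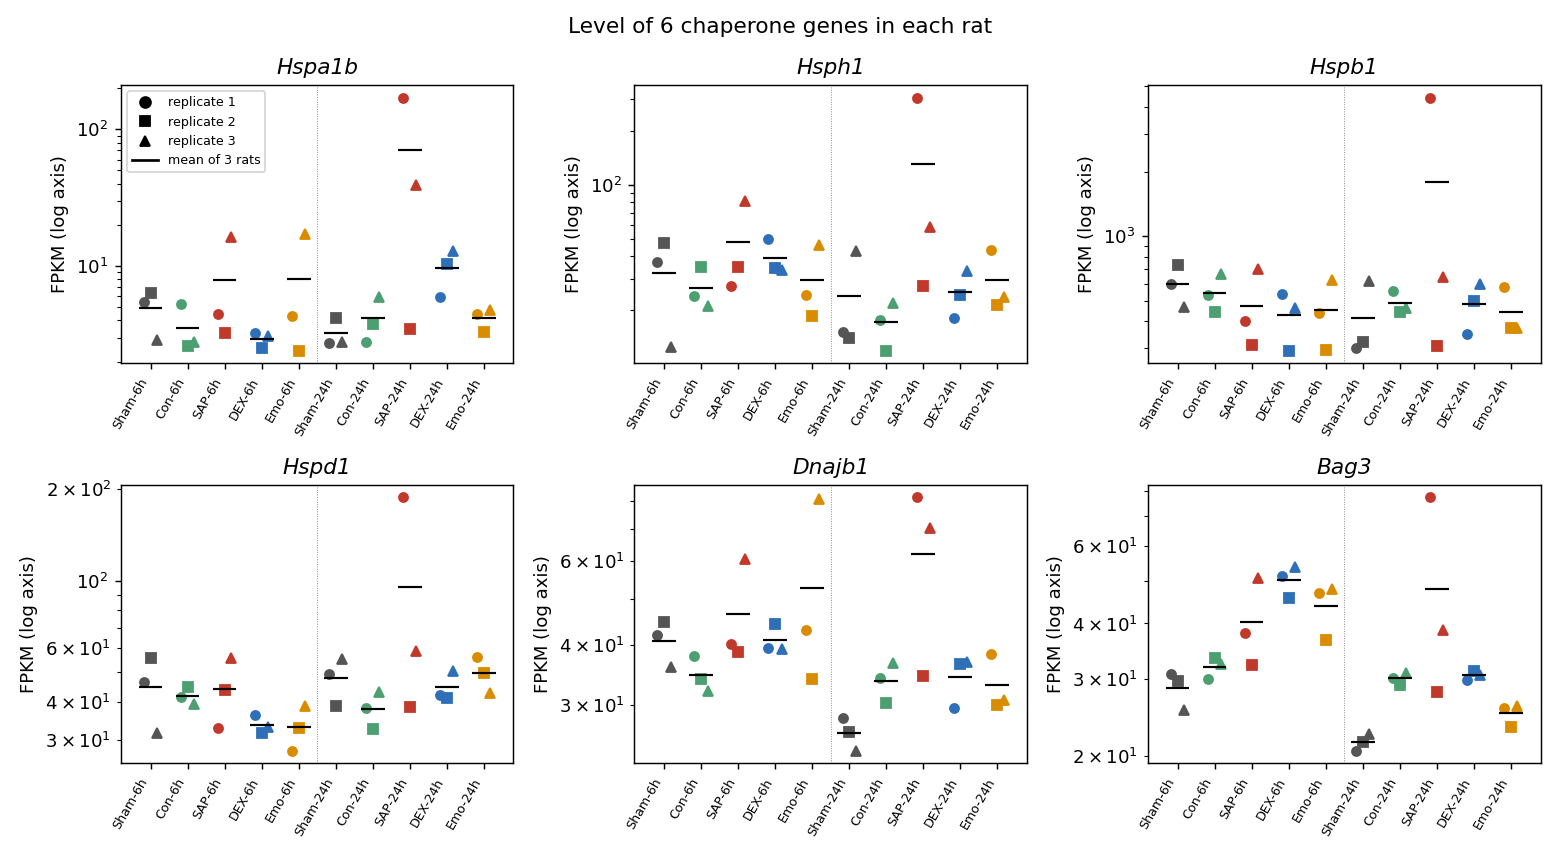
FPKM (logarithmic axes) of Hspa1b, Hsph1, Hspb1, Hspd1, Dnajb1 and Bag3 in each of the 3 rats of the 10 groups, with the mean of the group as a line. The first SAP-24h rat is the highest point of every panel (170 FPKM for Hspa1b), and the DEX-6h rats have Bag3 at 45.7 to 53.7 FPKM.

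The main contrast was whether taurocholate pancreatitis changed the chaperones of the lung at 24 h. The inducible HSP70 gene Hspa1b was at 170, 3.49 and 39.3 FPKM in the 3 SAP-24h rats and at 2.75, 4.19 and 2.79 FPKM in the Sham-24h rats. Of the SAP-24h rats, replicates 1 and 3 were thus above every Sham-24h rat, replicate 2 was among them, and the groups overlapped. Its log2 fold change was 4.64 (standard error 0.97, adjusted p = 0.00503, edgeR), and without the first SAP-24h rat it was 2.79 (standard error 0.80, adjusted p = 0.0463). Hspa1b was therefore called both ways, at a lower fold change.

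Hsph1, which recharges HSP70 with ATP, was at 306, 27.4 and 58.5 FPKM in SAP-24h and at 15.2, 14.1 and 42.8 FPKM in Sham-24h, and the groups overlapped through the third sham rat. The log2 fold change was 2.63 (standard error 0.71, adjusted p = 0.0201 from edgeR) and 0.92 without the first SAP-24h rat (adjusted p = 0.338). Hspb1 was at 4436, 306 and 643 FPKM in SAP-24h and at 299.6, 321 and 617 FPKM in Sham-24h. Apart from the first rat, the SAP-24h values of Hspb1 lay close to the range of the sham rats. Its log2 fold change fell from 2.31 (adjusted p = 0.0209, edgeR) to 0.28 (adjusted p = 0.72) without that rat. Hspd1 was at 188, 38.5 and 58.9 FPKM against 49.3, 38.8 and 55.5 FPKM, with a log2 fold change of 1.17 (adjusted p = 0.0375) that became 0.11 (adjusted p = 0.789) in the same edgeR fits. For Hsph1, Hspb1 and Hspd1, the call rested on that library.

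For Dnajb1 and Bag3, every SAP-24h rat lay above every Sham-24h rat. Dnajb1 was at 81.6, 34.5 and 70.3 FPKM in SAP-24h and at 28.2, 26.3 and 24.1 FPKM in Sham-24h. Its log2 fold change was 1.39 (standard error 0.27, adjusted p = 0.00302, edgeR), and it was still called without the first SAP-24h rat (1.09, adjusted p = 0.0227). Bag3 was at 77.3, 28.0 and 38.6 FPKM in SAP-24h and at 20.6, 21.6 and 22.5 FPKM in Sham-24h. It differed by 1.31 on the log2 scale (edgeR adjusted p = 0.00205, standard error 0.24), and without the first SAP-24h rat by 0.72 (adjusted p = 0.0109), below 2-fold. These were 2 of 9 members without overlap between the groups in this direction, where 7.58% of all genes tested had none.

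Hsf1, the factor itself, was at 12.8 to 17.0 FPKM in SAP-24h and at 11.7 to 14.2 FPKM in Sham-24h, overlapping values with a log2 fold change of 0.31 (adjusted p = 0.134, edgeR). The Hspa8 entry was at 2.89, 0.98 and 1.56 FPKM against 0.92, 0.88 and 1.18 FPKM, and was called (log2 fold change 1.02, adjusted p = 0.0356) only with the first SAP-24h rat (0.44 without it, adjusted p = 0.355). The entry AABR07070032.1 differed by 1.08 on the log2 scale (edgeR adjusted p = 0.0198, standard error 0.29), from 1321, 556 and 788 FPKM in SAP-24h and 406, 481 and 513 FPKM in Sham-24h, where the groups did not overlap. It differed by 0.61 (adjusted p = 0.172, edgeR) without the first SAP-24h rat and was then not called. LOC680121 was called against Sham-24h (1.04, adjusted p = 0.0128) and Con-24h (1.11, adjusted p = 0.00458, edgeR), and in neither without that rat (adjusted p = 0.113 and 0.0579). It was not called in DEX-24h (-0.965, adjusted p = 0.0239, below 2-fold) or Emo-24h (-0.568, adjusted p = 0.16, edgeR) against SAP-24h. The Hsp90aa1 entry was at 86.9, 0.0 and 0.61 FPKM in SAP-24h and at 0.01, 0.03 and 16.9 FPKM in Sham-24h, where 1 rat of each group set the mean. Its log2 fold change was 2.58 (adjusted p = 0.438, edgeR), and -4.14 (adjusted p = 0.363) without the first SAP-24h rat. Its copy LOC103692716 was at 168, 13.3 and 55.96 FPKM in SAP-24h and at 36.2, 58.4 and 88.6 FPKM in Sham-24h, overlapping groups that differed by 0.54 on the log2 scale (adjusted p = 0.582, edgeR), and by -0.74 (adjusted p = 0.425) without that rat.

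Together, 7 of the 9 tested members were called higher in SAP-24h than in Sham-24h and none lower, where 1.96% of all genes tested were called higher. Without the first SAP-24h rat 2 of 9 were called, Hspa1b and Dnajb1, where 2.49% of the genes tested were called in either direction. Leaving out sham rats also lowered the count, to 3 without the first and to 3 without the second Sham-24h rat, where 3.05% and 2.79% of the genes tested were called in either direction against 4.94% with all rats. Fitted on the 2 groups alone, no member was called, where 0.02% of the genes tested were called in either direction, and limma on FPKM called 2 (pseudocount 1, 2.14% of all genes) or 3 (pseudocount 0.1, 4.85%). The median log2 fold change of the members was 1.39, against -0.03 over all genes tested, and 0.44 without the first SAP-24h rat. In bulk lung, fewer cells of a type and less RNA per cell cannot be told apart.

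**Figure D3:**
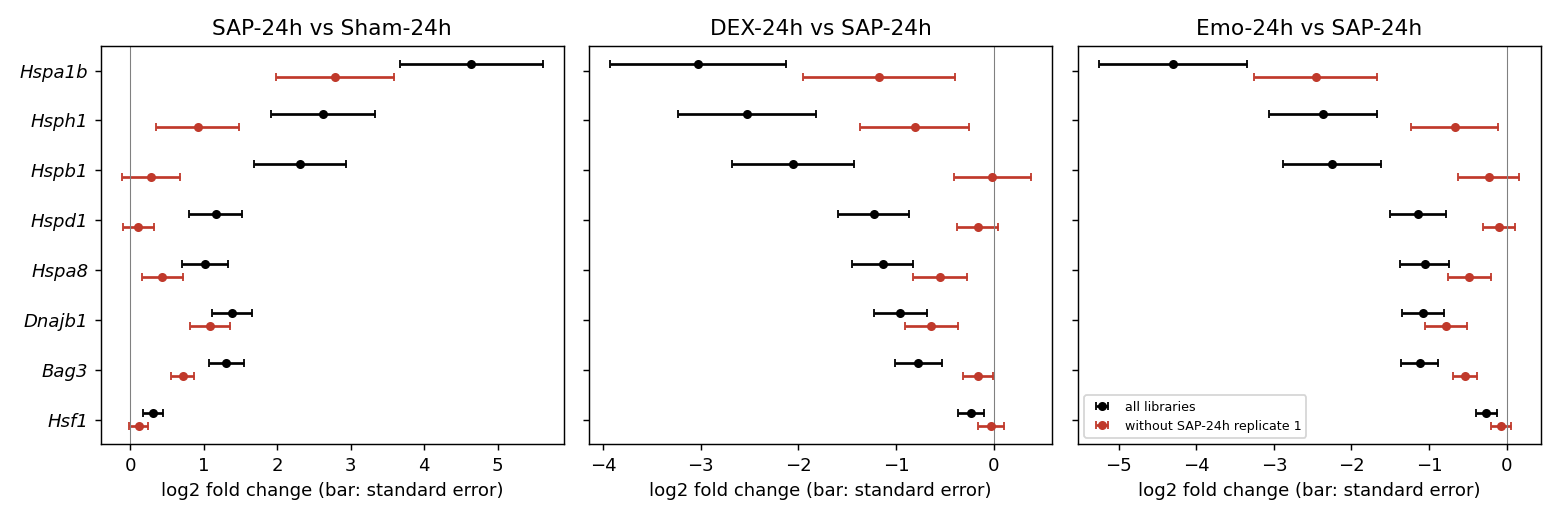
Log2 fold changes (edgeR; bars are standard errors) of 8 members in 3 comparisons at 24 h, from all libraries (black) and without the first SAP-24h rat (red); Hsp90aa1 is left out for its wide errors. Without that rat the change of Hspb1 moved from 2.31 to 0.28 in SAP-24h against Sham-24h, while that of Dnajb1 moved from 1.39 to 1.09.

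Against Con-24h, the rats with saline in the duct, 6 of 9 members were called higher in SAP-24h (3.61% of all genes tested), and none without the first SAP-24h rat (4.23% in either direction; 3 members without the second Con-24h rat, 3.7%). Fitted on these groups alone no member was called (1.66% of the genes tested), and limma on FPKM called 2 at either pseudocount (3.24% and 6.13% at 1 and 0.1). The Con-24h rats had Hsph1 at 17.8, 11.9 and 21.9 FPKM, all below the lowest SAP-24h rat, the only member without overlap where 9.87% of all genes tested had none; its log2 fold change was 3.12 (adjusted p = 0.00474, edgeR), and 1.40 without the first SAP-24h rat (adjusted p = 0.103). Hspa1b was at 2.80, 3.80 and 5.98 FPKM in Con-24h, with a log2 fold change of 4.27 (adjusted p = 0.00381), and without the first SAP-24h rat of 2.42 (adjusted p = 0.0501, edgeR). Bag3 passed the adjusted p (0.0151, edgeR) at a log2 fold change of 0.83, below 2-fold, which made 7 of 9 members by adjusted p alone, where 12% of all genes tested were higher. The copy AABR07070032.1 was called as the Hspa8 entry was (log2 fold change 1.35, adjusted p = 0.00294), and differed by 0.87 without the first SAP-24h rat (adjusted p = 0.0346, edgeR), below 2-fold. LOC103692716 was called (1.71, adjusted p = 0.0437) where the Hsp90aa1 entry was not (adjusted p = 0.0543, edgeR), from 18.9 to 38.1 FPKM in Con-24h and 13.3 to 168 FPKM in SAP-24h, groups that overlapped. Its call was lost without the first SAP-24h rat (0.41, adjusted p = 0.641, edgeR). These comparisons share the SAP-24h rats with all other SAP-24h comparisons, so the calls are not independent of each other.

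The drug contrasts asked whether dexamethasone or emodin altered these genes in rats with pancreatitis. At 24 h, Hspa1b was at 5.92, 10.4 and 12.8 FPKM in DEX-24h and at 4.48, 3.27 and 4.77 FPKM in Emo-24h. In both drug groups the values fell between the lowest and the middle of the SAP-24h rats or below them, and none approached the first SAP-24h rat. The log2 fold change against SAP-24h was -3.03 for DEX-24h (standard error 0.90, adjusted p = 0.0415, edgeR) and -4.30 for Emo-24h (standard error 0.96, adjusted p = 0.0109, edgeR). Without the first SAP-24h rat these were -1.17 (adjusted p = 0.449) and -2.46 (adjusted p = 0.0822, edgeR).

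In DEX-24h, 5 of 9 members were called lower than in SAP-24h (2.5% of all genes tested): Hspa1b, Hsph1 (-2.53), Hspb1 (-2.05), Hspd1 (-1.23) and Hspa8 (-1.14, all log2 fold changes). The copy AABR07070032.1 was called with Hspa8 (-1.08, adjusted p = 0.0248), and not without the first SAP-24h rat (-0.60, adjusted p = 0.209, edgeR). Dnajb1 (-0.95) and Bag3 (-0.77) had adjusted p-values under 0.05 in edgeR below 2-fold, which made 7 of 9 by adjusted p alone (4.69% of all genes tested). None of the 9 was called without the first SAP-24h rat (2.84% of the genes tested in either direction), and none without the first, the second or the third DEX-24h rat (2.58%, 2% and 2.28%, against 3.68% with all rats). The groups fitted alone (1.44%) and limma on FPKM at pseudocounts 1 and 0.1 (1.68% and 3.1%) called none, and edgeR without the filter (2.15%) or with a replicate block (3.52%) called 1. Hspb1, for example, was at 351, 497 and 598 FPKM in DEX-24h, and its log2 fold change without the first SAP-24h rat was -0.01 (adjusted p = 0.993, edgeR).

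In Emo-24h, 6 of 9 members were called lower than in SAP-24h (1.24% of all genes tested): Hspa1b, Hsph1 (-2.37), Hspb1 (-2.25), Bag3 (-1.12), Dnajb1 (-1.08) and Hspa8 (-1.06). The entry AABR07070032.1, with nearly all reads of the Hspa8 pair, was not called there (-0.86, adjusted p = 0.0654, edgeR). Between Emo-24h and DEX-24h that entry differed by 0.22 on the log2 scale (edgeR adjusted p = 0.75, standard error 0.29). Bag3 was at 25.7, 23.2 and 26.0 FPKM in Emo-24h, all below the lowest SAP-24h rat, and was the only member without overlap in this direction, where 6.23% of all genes tested had none. Its change kept its sign without the first SAP-24h rat (-0.53, adjusted p = 0.0521, edgeR). None of the 9 was called without that rat (1.66% of the genes tested in either direction), and 2, 1 and 3 were called without the first, the second and the third Emo-24h rat (1.22%, 0.812% and 3.18%, against 3.16% with all rats). With the groups fitted alone none was called, nor any other gene (0%), and limma on FPKM called 1 at either pseudocount (1.3% and 3.52% at 1 and 0.1). Between the drugs at 24 h, no member was called (4.98% of all genes tested; 1 member, Hsp90aa1, at an unadjusted p under 0.05, as were 21.2% of all genes tested; DESeq2 called none, and a fit of the 2 groups alone called Hspa1b, with 5.26% of the genes tested). Hspa1b and Bag3 were lower in every Emo-24h than in every DEX-24h rat, as were 10.8% of all genes tested, with log2 fold changes of -1.28 (standard error 0.86, adjusted p = 0.443) and -0.35 (standard error 0.24, adjusted p = 0.438, edgeR).

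Against Sham-24h, no member was called in Con-24h (Sham-24h vs Con-24h, 0.966% of all genes tested), DEX-24h (4.11%) or Emo-24h (0%), and the numbers of members at an unadjusted p under 0.05 were 1, 1 and 0 of 9, where 27%, 19.9% and 2.9% of all genes tested had one. DESeq2 called none in these 3 comparisons either, while a fit of the compared groups alone called Hspa1b in DEX-24h vs Sham-24h (log2 fold change 1.60, adjusted p = 0.0338, edgeR; 3.44% of the genes tested) and no gene (0%) in the other two. The levels of Bag3 and Dnajb1 did not overlap with the sham rats in any of them. Bag3 was at 29.01 to 30.9 FPKM in Con-24h and 29.8 to 31.2 FPKM in DEX-24h, above the 20.6 to 22.5 FPKM of Sham-24h, as were the Emo-24h rats. Dnajb1 was at 30.3 to 36.8 FPKM in Con-24h, 29.7 to 37.0 FPKM in DEX-24h and 29.99 to 38.4 FPKM in Emo-24h, above the highest sham rat at 28.2 FPKM. The 3 comparisons share the Sham-24h rats, and the shares of all genes tested without overlap were 13.7% (lower in Sham-24h than in Con-24h), 10.2% (higher in DEX-24h) and 5.49% (higher in Emo-24h). Hspa1b in DEX-24h and Hsf1 in Con-24h were the other members above all sham rats.

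At 6 h, no member was called in any of the 8 comparisons. The percentages of all genes tested that were called were 0.213% for SAP-6h vs Sham-6h, 0.151% for SAP-6h vs Con-6h, 0% for Sham-6h vs Con-6h, 0.527% for DEX-6h vs SAP-6h, 3.94% for DEX-6h vs Sham-6h, 0.0251% for Emo-6h vs SAP-6h, 0.477% for Emo-6h vs Sham-6h and 1.32% for Emo-6h vs DEX-6h. In the same order, 1, 0, 0, 1, 2, 0, 2 and 0 members had an unadjusted p under 0.05, where 13%, 10.4%, 8.54%, 12%, 25.2%, 13.4%, 22.6% and 17.2% of all genes tested had one, and DESeq2 called none. Bag3 had the lowest adjusted p among them. It was at 51.2, 45.7 and 53.7 FPKM in DEX-6h and 30.7, 29.6 and 25.4 FPKM in Sham-6h, groups without overlap. The log2 fold change was 0.85 (standard error 0.24, adjusted p = 0.0245, edgeR), below 2-fold; by adjusted p alone 5.11% of all genes tested were higher. In Emo-6h it was at 46.9, 36.8 and 48.0 FPKM, and in SAP-6h at 38.1, 32.1 and 50.6 FPKM, all above the highest sham rat. Their log2 fold changes against Sham-6h were 0.66 (adjusted p = 0.103) and 0.54 (adjusted p = 0.312, edgeR). Hsf1 was also higher in every DEX-6h rat (18.1, 17.2 and 18.9 FPKM) than in every Sham-6h rat (14.4, 16.4 and 14.4 FPKM), with a log2 fold change of 0.31 (adjusted p = 0.158, edgeR); 10.6% of all genes tested were without overlap in this direction. For higher values in SAP-6h and in Emo-6h than in Sham-6h the shares were 5.58% and 9.35%, with Bag3 as the 1 member in each. The remaining members without overlap at 6 h were Dnajb1, higher in SAP-6h than in Con-6h (5.08% of all genes), Hsf1, higher in DEX-6h than in SAP-6h (8.75%), and the Hspa8 entry, lower in Emo-6h than in Sham-6h (12%).

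Single rats with raised chaperones occurred at 6 h as well. The third Emo-6h rat was the highest of its group for 9 of 9 members (38.7% of the 12410 genes with a mean of at least 1 FPKM), with Hspa1b at 17.3 FPKM against 4.30 and 2.40 FPKM and Dnajb1 at 81.1 FPKM against 43.1 and 34.0 FPKM. The third SAP-6h rat was the highest of its group for 8 of 9 members (34.4% of those genes), with Hspa1b at 16.2 FPKM against 4.46 and 3.22 FPKM. The third sham rat at 24 h was the highest of its group for 7 of 9 (27.3% of those genes), and there Hspa1b was not raised, while Hsph1 and the Hsp90aa1 entry were. The second SAP-24h rat was the lowest of its group for 9 of 9 members (31.7% of those genes).

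**Figure D4:**
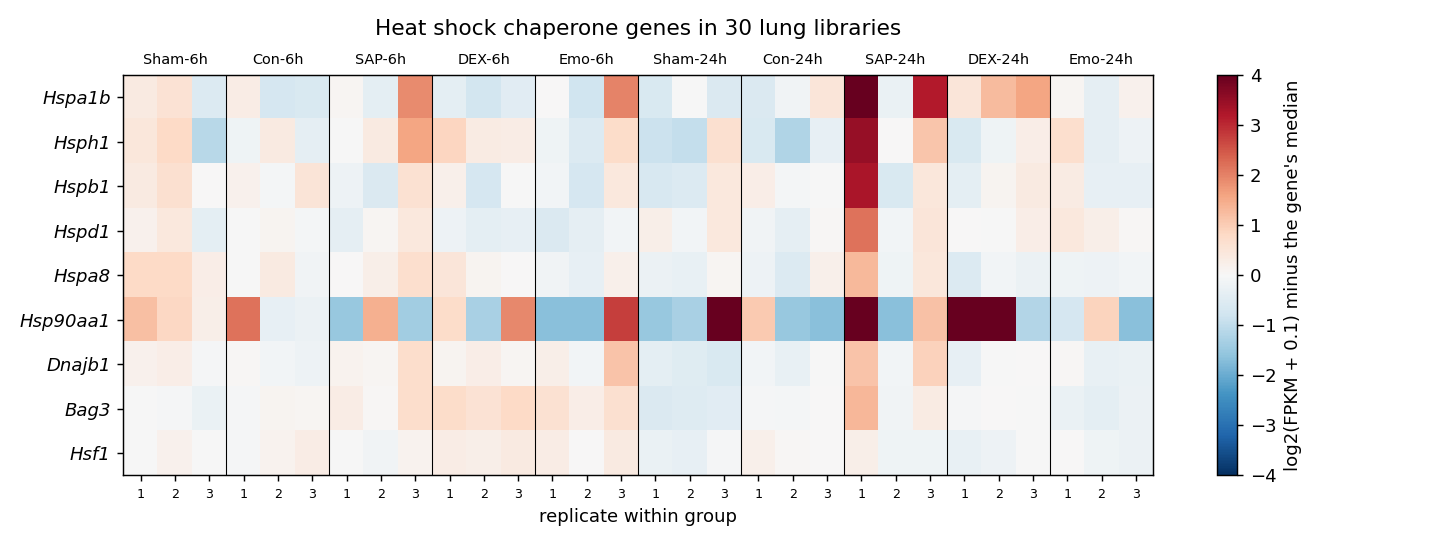
Colour gives log2(FPKM + 0.1) minus the median of the gene over 30 libraries, for 9 members (vertical) in the 3 replicates of each group (horizontal), with colours capped at 4 log2 units on either side. The first SAP-24h rat has the darkest red for Hspa1b, Hsph1, Hspb1 and Hspd1, with paler columns at the third SAP-24h, SAP-6h and Emo-6h rats, and the Hsp90aa1 entry swings between rats of the same group.

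Over time, Hspa1b (3.34), Hspd1 (1.26) and Hspb1 (2.10, all log2 fold changes) were called higher in SAP-24h than in SAP-6h, 3 of 9 members where 0.659% of all genes tested were called higher. None was called without the first SAP-24h rat (1.51% of the genes tested in either direction), without the first or without the second SAP-6h rat (1.24% and 1.44%), and 1 without the third SAP-6h rat (1.13%, against 2.34% with all rats). Their log2 fold changes without the first SAP-24h rat were 1.49 (Hspa1b, adjusted p = 0.3), 0.20 (Hspd1, adjusted p = 0.642) and 0.06 (Hspb1, adjusted p = 0.952, edgeR), and the median of the members moved from 1.26 to 0.06. The groups fitted alone (1.2% of the genes tested), limma on FPKM at pseudocounts 1 and 0.1 (1.19% and 2.29%) and edgeR without the filter (1.25%) called none, and edgeR with a replicate block 1 (2.03%). In the other groups no member was called between the times, in Sham (0.257% of all genes tested), Con (0.00628%), DEX (7.05%) or Emo (9.33%), with 2, 0, 2 and 3 members at an unadjusted p under 0.05, where 20.3%, 10.4%, 37.7% and 44% of all genes tested had one. DESeq2 called none, and the fits of the compared groups alone called Hspa1b in DEX rats (log2 fold change 1.74, adjusted p = 0.00733, edgeR; 6.95% of the genes tested), no member in Emo rats (8.56%) and no gene in Sham and Con rats (0%). Below 2-fold, Bag3 passed the adjusted p in DEX-24h vs DEX-6h (-0.70, adjusted p = 0.0322) and Emo-24h vs Emo-6h (-0.86, adjusted p = 0.00779, edgeR). Hsf1 did so too, at -0.46 (adjusted p = 0.0166) and -0.41 (adjusted p = 0.0231, edgeR), and Dnajb1 in the Emo rats (-0.73, adjusted p = 0.0394, edgeR); by adjusted p alone 12.2% and 16.8% of all genes tested were lower in DEX and in Emo rats. Without overlap between the times, Hspa8, Dnajb1, Bag3 and Hsf1 were lower in Sham-24h (11.6% of all genes), Bag3 was lower (21.4%) and Hspd1 higher (26.2%) in Emo-24h, and in DEX-24h Hspa8, Hsph1, Dnajb1, Bag3 and Hsf1 were lower (21.6%) and Hspa1b and Hspd1 higher (21%). Averaged over the 5 treatments, no member was called (4.34% of all genes tested, 3 members at an unadjusted p under 0.05, as were 54.1% of all genes), and those passing the adjusted p below 2-fold were Hsf1 (-0.20, adjusted p = 0.00909), Bag3 (-0.32, adjusted p = 0.0154) and Hspd1 (0.45, adjusted p = 0.0241, edgeR). By adjusted p alone 24.7% of all genes tested were higher and 23.4% lower at 24 h, so 1 and 2 of 9 members are no more than that share. The copy LOC103692716, which carries most of the HSP90-alpha reads, was called higher at 24 h in DEX rats (log2 fold change 1.64, adjusted p = 0.047), in Emo rats (1.79, adjusted p = 0.0249) and over the averaged treatments (1.10, adjusted p = 0.00164, edgeR). It was at 57.2, 59.2 and 91.3 FPKM in DEX-24h against 22.7, 30.1 and 13.9 FPKM in DEX-6h, and at 73.6, 50.3 and 60.3 FPKM in Emo-24h against 13.7, 14.1 and 23.5 FPKM in Emo-6h, without overlap in either.

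Whether an effect itself differed between the times was tested as an interaction. For SAP vs Sham no member was called (0.0314% of all genes tested; 7 of 9 members at an unadjusted p under 0.05, against 12.4% of all genes), nor for DEX vs SAP (0.0816%; 5 of 9 members, against 13.5%). Without the first SAP-24h rat 1 of 9 members (Dnajb1, against 10.5% of the genes tested) and 1 of 9 (Bag3, against 12.5%) had an unadjusted p under 0.05, and the members' median change moved from 1.3 to 0.304 for SAP vs Sham and from -1.08 to -0.347 for DEX vs SAP on the log2 scale. For Emo vs SAP, 1 of 9 was called, where 0.628% of all genes tested were called lower, and 6 of 9 had an unadjusted p under 0.05, against 23.3% of all genes (3 of 9 against 22.1% of the genes tested without the first SAP-24h rat). This was Bag3, whose difference between Emo and SAP was 0.12 at 6 h and -1.12 at 24 h on the log2 scale, a change of -1.24 (standard error 0.33, adjusted p = 0.0434, edgeR). Without the first SAP-24h rat the change was -0.65 (adjusted p = 0.08, with 1.05% of the genes tested called), and it also lost the call without the first or second Emo-24h rat, either the first or the third Emo-6h rat, or the second SAP-6h rat. The call was also lost with the compared groups alone (-1.25, adjusted p = 0.185, edgeR), where 0.0129% of the genes tested were called, and in limma on FPKM (adjusted p = 0.0893 and 0.0858 at pseudocounts 1 and 0.1, where 0.665% and 1.24% were called). With 1 library left out, 0 to 4 members were called for the change of Emo vs SAP. No share of all genes goes with the upper count. For DEX vs SAP the change of Bag3 was -1.08 (standard error 0.33, adjusted p = 0.162, edgeR), not called, and the changes under the 2 drugs share the SAP rats and were not tested against each other. Under emodin the change of Hspa1b was -4.33 (standard error 1.24, adjusted p = 0.0526) and that of Dnajb1 -1.26 (standard error 0.38, adjusted p = 0.0588, edgeR). These were -2.48 (adjusted p = 0.175) and -0.96 (adjusted p = 0.131, edgeR) without the first SAP-24h rat.

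Of 84 other chaperone genes in the lists used, 81 were tested. In SAP-24h vs Sham-24h 9 were called higher and 1 lower, where 1.96% of all genes tested were called higher and 2.97% lower. The median log2 fold change was 0.35, and 0.14 without the first SAP-24h rat. None was called without it (19 without the second, where 4.57% of the genes tested were called in either direction, and 4 and 2 without the first and second Sham-24h rat). The chaperones of the endoplasmic reticulum gave 3 of 13 higher, led by Hspa5, the HSP70 of that compartment (log2 fold change 1.85, adjusted p = 0.0135), with Sdf2l1 at 1.47 (adjusted p = 0.0229, edgeR). HSP90 and its cochaperones gave 3 of 11 higher, led by Stip1, which passes clients from HSP70 to HSP90 (1.74, adjusted p = 0.0144, edgeR). The gene called lower was Cryab, a small heat shock protein of muscle and lens (-1.01, adjusted p = 0.0174, edgeR). The cytosolic CCT chaperonin (8 genes), the mitochondrial chaperones (7 genes) and the other HSP70 and HSP110 proteins (8 genes) had no call in either direction. Among known Hsf1 targets outside the members 5 of 16 were called higher and 1 lower; this list overlaps the others.

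Against Con-24h, 15 of the 81 were called higher in SAP-24h and 3 lower, where 3.61% of all genes tested were called higher and 3.23% lower. HSP90 and its cochaperones gave 6 of 11 higher, with Cacybp at 1.92 (adjusted p = 0.00412), and the chaperones of the endoplasmic reticulum 5 of 13, with Hspa5 at 1.99 on the log2 scale (adjusted p = 0.00473, edgeR). Dnaja1, an HSP40, was at 1.75 (adjusted p = 0.0189, edgeR). None of the 15 was called without the first SAP-24h rat. The genes called lower were the small heat shock proteins Hspb2 (-1.48, adjusted p = 0.00532) and Cryab (-1.11, adjusted p = 0.00567) and the heat shock factor Hsf4 (-1.14, adjusted p = 0.000712, edgeR). Those 3 were still called without that rat, at -1.13 (adjusted p = 0.0321), -1.03 (adjusted p = 0.032) and -1.15 (adjusted p = 0.00393, edgeR), and 7 of the 81 were called in either direction without the second Con-24h rat.

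In DEX-24h vs SAP-24h 1 of the 81 was called higher (Cryab, 1.46, adjusted p = 0.00214) and 4 lower, where 1.18% and 2.5% of all genes tested were called, with Stip1 (-1.59), Hsp90ab1, the constitutive HSP90 (-1.40), and Fkbp4, an HSP90 cochaperone (-1.36), the largest on the log2 scale. Without the first SAP-24h rat 1 was called, Cryab (1.38, adjusted p = 0.0136, edgeR), and 14 without the second (3.86% of the genes tested in either direction), with 1, 1 and 2 called without the first, the second and the third DEX-24h rat. In Emo-24h vs SAP-24h 5 were called lower and none higher, where 1.24% of all genes tested were called lower and 1.93% higher, with Hspa5 at -1.59, Stip1 at -1.51 and Sdf2l1 at -1.44 on the log2 scale; none was called without the first SAP-24h rat, 18 without the second and 8 without the third (3.05% and 3.07% of the genes tested in either direction), and 2, 1 and 3 without the first, the second and the third Emo-24h rat. In DEX-6h vs Sham-6h 3 of the 81 were called, a share near the 3.94% of all genes tested. Fkbp5, an HSP90 cochaperone and a known glucocorticoid target, was called higher (log2 fold change 2.01, adjusted p = 0.00698), as was Dnajb5 (1.11, adjusted p = 0.000347, edgeR), and Hspa12a was called lower (-1.54, adjusted p = 0.00173, edgeR).

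Hspa1b had the widest span of group means among members with a lowest mean of at least 1 FPKM, and the 5 genes outside the members whose log2(FPKM + 1) followed it most closely over the 30 libraries, among 12400 genes compared, were Manf (Pearson r = 0.88, Spearman rho = 0.622), Hspa5 (0.86, 0.641), Dnajb11 (0.851, 0.55), Dnaja1 (0.85, 0.735) and Ccdc117 (0.847, 0.751). Manf, Hspa5 and Dnajb11 encode proteins of the endoplasmic reticulum, and Dnaja1 is an HSP40. The libraries share groups and 1 of them is extreme; without the first SAP-24h rat r was 0.751, 0.714, 0.714, 0.743 and 0.779. Among the members themselves, r with Hspa1b was 0.798 for Hspb1, 0.781 for Dnajb1, 0.771 for Hspd1, 0.755 for Hsph1, 0.608 for Hspa8, 0.549 for Hsp90aa1, 0.541 for Bag3 and 0.0733 for Hsf1. Without that rat, in the same order, r was 0.512, 0.719, 0.454, 0.508, 0.316, 0.113, 0.276 and -0.083.

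Markers of other cells and glucocorticoid target genes were called in most of the same 24 h comparisons. In SAP-24h vs Sham-24h (1.96% of all genes tested higher, 2.97% lower) 2 of 7 macrophage markers, 1 of 10 neutrophil markers and 1 of 13 glucocorticoid target entries were higher (1, 1 and 1 without the first SAP-24h rat), and 4 of 6 T cell markers and 1 of 6 alveolar type 1 cell markers lower (1 and 0 without it). In SAP-24h vs Con-24h (3.61% higher, 3.23% lower) 7 of 10 neutrophil markers, 2 of 7 macrophage markers and 1 of 13 target entries were higher (7, 3 and 0 without it), and 5 of 6 T cell markers, 1 of 6 alveolar type 1 and 1 of 6 endothelial cell markers lower (4, 0 and 1 without it). In DEX-24h vs SAP-24h (1.18% higher, 2.5% lower) 1 of 13 target entries was higher (1 without it), and 3 of 5 B and plasma cell markers, 2 of 10 neutrophil markers and 1 of 7 macrophage markers lower (2, 0 and 1 without it), with neutrophil sums of 1690 to 4880 FPKM in DEX-24h and 4750 to 18000 FPKM in SAP-24h. In Emo-24h vs SAP-24h (1.93% higher, 1.24% lower) 2 of 6 T cell markers were higher (0 without it), and 3 of 13 target entries, 1 of 10 neutrophil markers and 1 of 8 alveolar type 2 cell markers lower (0, 0 and 1 without it, and then 1 of 7 macrophage markers), with target sums of 588 to 1380 FPKM in Emo-24h and 1830 to 6010 FPKM in SAP-24h. The other marker lists had no call in these comparisons. In DEX-24h vs Sham-24h (4.11% of all genes tested in either direction) 6 of 6 T cell markers, 3 of 5 B and plasma cell markers and 1 of 10 neutrophil markers were lower, and 3 of 13 target entries, 1 of 7 macrophage and 1 of 8 alveolar type 2 cell markers higher. In Emo-24h vs DEX-24h (4.98% in either direction) 6 of 6 T cell markers and 4 of 5 B and plasma cell markers were higher, and 10 of 13 target entries and 1 of 8 alveolar type 2 cell markers lower, with T cell sums of 23.2 to 84.4 FPKM in Emo-24h and 11.3 to 17.6 FPKM in DEX-24h. Sham-24h vs Con-24h had 2 of 10 neutrophil markers higher, and Emo-24h vs Sham-24h had no call in these lists.

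Entries of the same lists were called between the times. In SAP-24h vs SAP-6h (0.659% of all genes tested higher, 1.68% lower) 3 of 6 red blood cell markers and 3 of 6 T cell markers were lower (0 and 1 without the first SAP-24h rat), with T cell sums of 17.5 to 21.0 FPKM at 24 h and 56.8 to 68.8 FPKM at 6 h. In DEX-24h vs DEX-6h (3.18% higher, 3.87% lower) 5 of 6 T cell markers, 4 of 5 B and plasma cell markers and 1 of 10 neutrophil markers were lower, and 2 of 7 macrophage markers, 1 of 8 alveolar type 2 and 1 of 6 endothelial cell markers and 1 of 13 target entries higher. In Emo-24h vs Emo-6h (6.28% higher, 3.05% lower) 6 of 6 red blood cell markers, 7 of 13 target entries and 1 of 6 endothelial cell markers were lower, and 2 of 7 macrophage and 1 of 8 alveolar type 2 cell markers higher, with red blood cell sums of 373 to 1630 FPKM at 24 h and 3950 to 10200 FPKM at 6 h. Averaged over the treatments (4.34% in either direction), 6 of 6 red blood cell markers, 4 of 6 T cell markers, 1 of 10 neutrophil markers and 1 of 13 target entries were lower at 24 h. In DEX-6h vs Sham-6h (3.94% in either direction), where Bag3 passed the adjusted p, 6 of 13 target entries and 1 of 7 ciliated cell markers were higher and 1 of 7 macrophage, 1 of 6 alveolar type 1 and 1 of 6 endothelial cell markers lower. Their part in the changes of the chaperones was not tested.

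In the first SAP-24h rat, several marker or target gene lists were also at an edge of the 30 libraries. The summed FPKM of 6 alveolar type 1 cell markers was 1370, the lowest of all (Sham-24h rats had 2790 to 3820), and that of 7 ciliated cell markers 339, also the lowest (Sham-24h 666 to 790). The sum of 10 neutrophil markers was 13600, the second highest (SAP-24h 4750 to 18000, Sham-24h 452 to 9550), and that of 7 macrophage markers 146, at rank 29 (Sham-24h 185 to 224). The sum of 6 T cell markers was 17.5, at rank 28 (SAP-24h 17.5 to 21.0, Sham-24h 56.2 to 83.7). The 13 entries of the glucocorticoid target list summed to 6010, the highest of all 30 libraries (SAP-24h 1830 to 6010, Sham-24h 706 to 1780, DEX-24h 2240 to 2440). Alveolar type 2 cell, endothelial, red blood cell, B cell and heart muscle markers were at ranks 26, 25, 24, 26 and 27. No marker of these lists was at 0 in all libraries. The part of these differences in the chaperone levels of that rat was not tested.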

How the data were processed

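Directional libraries of polyadenylated RNA from 30 rat lungs were sequenced as paired ends. The authors trimmed the reads, mapped them with TopHat2 to rat_ensembl_v6 with 2 mismatches allowed, and discarded reads with several places; the counting program was not given in the sources used here. The deposited tables hold read counts per gene (22914 genes) and FPKM values that the authors calculated per gene (22907 genes, given to 2 decimals).

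Here, counts were analysed with edgeR 4.0.16 (R 4.3.3): filterByExpr (minimum count 10, total 15), TMM scaling, the robust quasi-likelihood test on 10 group means over all 30 libraries (20 residual degrees of freedom) and Benjamini-Hochberg adjustment over 15934 genes. FPKM values were used for levels, without a test, except in limma 3.58.1 on log2(FPKM + 1) and log2(FPKM + 0.1) as alternatives. DESeq2 1.42.0 was a further alternative. Other alternatives were RLE scaling, other filters, a replicate block, the compared groups alone, Hspa1a and Hspa1b summed and each library left out; copy entries, non-robust estimation and correlations without the first SAP-24h rat were added after seeing the data. Within groups, library pairs differed far beyond sampling noise (chi-square per degree of freedom 35.4 to 197), so none was counted as a duplicate. The fit was tested on simulated counts. Replicates were separate rats.

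The members and lists were chosen with earlier results of these data known. Named genes are the members, the 5 genes most like the member of widest span, and per comparison up to 3 called genes per direction from the other chaperone lists.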

Additional observations from a re-analysis of the deposited data

Results flagged for a closer look

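The effect of emodin on Bag3 differed between the times by an interaction test (edgeR, adjusted p = 0.0434): the difference between Emo and SAP changed by -1.24 on the log2 scale from 6 to 24 h. At 6 h the Emo rats were at 46.9, 36.8 and 48.0 FPKM and the SAP rats at 38.1, 32.1 and 50.6 FPKM; at 24 h they were at 25.7, 23.2 and 26.0 FPKM and at 77.3, 28.0 and 38.6 FPKM. Without the first SAP-24h rat the change was -0.65 (adjusted p = 0.08), and the call was also lost when any 1 of 5 other libraries was left out, with the compared groups alone (adjusted p = 0.185) and in limma on FPKM (adjusted p = 0.0893 and 0.0858 at pseudocounts 1 and 0.1). The corresponding change for DEX against SAP was -1.08 (edgeR, adjusted p = 0.162), and these 2 changes were not tested against each other.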

How the results depend on the processing

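Of the 28 called log2 fold changes of members, 28 kept direction and call under RLE scaling, DESeq2, a 1 CPM filter, summed Hspa1a and Hspa1b and non-robust estimation; all 28 lost the call with the compared groups alone, where 0% to 1.66% of the genes tested were called, 23 and 22 in limma on log2(FPKM + 1) and log2(FPKM + 0.1), 11 with a replicate block and 9 with no filter. The cause was not tested.

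Members called in SAP-24h vs Sham-24h numbered 0 with the groups alone and 2 and 3 in limma (pseudocounts 1 and 0.1); in SAP-24h vs Con-24h 0, 2 and 2; in DEX-24h vs SAP-24h 0, 0 and 0, with 1 under no filter; in Emo-24h vs SAP-24h 0, 1 and 1; in SAP-24h vs SAP-6h 0, 0 and 0, with 0 under no filter and 5 by unadjusted p and 2-fold. For the change of Emo vs SAP they were 0, 0 and 0, then 2 under RLE, 2 without robust estimation, 3 in DESeq2 and 5 by unadjusted p and 2-fold. For the changes of SAP vs Sham and DEX vs SAP they were 6 and 4 by unadjusted p and 2-fold. By unadjusted p alone these 3 changes had 6, 7 and 5 members, where 23.3%, 12.4% and 13.5% of all genes tested had one. No share of all genes goes with the counts under RLE, non-robust estimation, DESeq2 or unadjusted p with 2-fold. Those counts are therefore not read as a result about the members. DEX-24h vs Sham-24h and DEX-24h vs DEX-6h gave 1 and 1 with the groups alone, and Emo-24h vs DEX-24h 1 alone and 1 by unadjusted p. By adjusted p with no fold limit, counts were 1 in DEX-6h vs Sham-6h, 2 in DEX-24h vs DEX-6h, 3 in Emo-24h vs Emo-6h and 3 for the averaged times. With the copy entries in place of Hspa8 and Hsp90aa1, chosen after seeing the data, the last 3 of these comparisons gave 1, 1 and 1 call at the usual 2-fold limit, where the members gave 0, and SAP-24h vs Con-24h 7 in place of 6; the added call was LOC103692716, lost in SAP-24h vs Con-24h without the first SAP-24h rat. Emo-24h vs SAP-24h gave 5 in place of 6, since AABR07070032.1 was not called.

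Leaving out each library gave 2 to 7 members in SAP-24h vs Sham-24h, 0 to 8 in SAP-24h vs Con-24h, 0 to 7 in DEX-24h vs SAP-24h, 0 to 7 in Emo-24h vs SAP-24h, 0 to 4 in SAP-24h vs SAP-6h, 0 to 1 in Emo-24h vs Emo-6h, 0 to 1 for the change of DEX vs SAP, 0 to 4 for the change of Emo vs SAP and 0 to 2 for the averaged times. Without the second SAP-24h rat, 7 members were called in SAP-24h vs Sham-24h, where 4.57% of the genes tested were called in either direction. Dexamethasone against SAP at 24 h also gave 7 without that rat (3.86%). Emodin against SAP at 24 h gave 7 without the second or the third SAP-24h rat (3.05% and 3.07%). The upper counts of the other comparisons have no such share and are not read as a result about the members. Hsp90aa1 reversed to -4.14 in SAP-24h vs Sham-24h without the first SAP-24h rat.

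For the other chaperones, counts by adjusted p have no fold limit, and those by unadjusted p keep the 2-fold limit. Those called in SAP-24h vs Sham-24h were 0 with the groups alone, 4 and 5 in limma, 24 by adjusted p and 0 to 19 with a library left out. By adjusted p alone 6.78% of all genes tested were higher there and 5.6% lower. In SAP-24h vs Con-24h they were 1, 8 and 11, with 44 by adjusted p (12% of all genes tested higher and 9.98% lower) and 3 to 26. In DEX-24h vs SAP-24h they were 1, 2 and 3, with 12 by unadjusted p, 9 in DESeq2 and 1 to 14. In Emo-24h vs SAP-24h they were 0, 0 and 0, with 16 by adjusted p (3.56% of all genes tested higher and 5.02% lower), 9 by unadjusted p, 8 in DESeq2 and 0 to 18. No share of all genes goes with the counts by unadjusted p and in DESeq2 or with the upper count of 26 in SAP-24h vs Con-24h. They are not read as a result about these genes.

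With the replicate block, 1 member was called in DEX-24h vs SAP-24h, 1 in SAP-24h vs SAP-6h and 3 other chaperones in DEX-24h vs SAP-24h. The correlations gave no clear sign that the numbers pair the rats, and cannot exclude it. Same-numbered libraries correlated at -0.363 to 0.359 (median -0.01, against 0.01 for different numbers), and 10 of 30 matched their own number best.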
